A study of Mus musculus with 16 samples.

Results

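Messenger RNA is spliced and packaged by a large group of nuclear proteins, and the genes described here encode 4 families of them: every gene of the tables whose symbol begins with Srsf, Snrp, Sf3 or Hnrnp. There were 52 such genes among 20622, namely 11 Srsf, 12 Snrp, 9 Sf3 and 20 Hnrnp genes, and all 52 had a transcript in the footprint tables, which cover 15235 genes. Membership rested on the symbol alone, but the families were chosen with earlier results of these data known.

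The genes were measured in KM cells, which were grown out of lung tumours of 1 male mouse carrying Rosa26LSL-MYC/LSL-MYC, an allele that switches on extra MYC once Cre has removed a stop cassette. Both lines share the genotype of this mouse, received Cas9 from a lentiCRISPR vector and were left untreated. KM_NTC cells carried a non-targeting guide. KM_4A2cr cells carried a guide to the coding region of *Eif4a2*, which encodes an RNA helicase of the translation machinery, and are a pool of 4 clones that lack the protein by western blot. Each line was harvested in 4 independent experiments on different days, and every lysate gave 1 library of ribosome-protected fragments (RPFs, the mRNA stretches covered by translating ribosomes) and 1 of cytoplasmic total RNA, which makes 16 libraries. RPF libraries held 4512403 to 9621848 counts and total RNA libraries 5350919 to 9312622. The comparison asks how ribosome occupancy and mRNA level of these genes differ in cells without eIF4A2.

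Introns are removed by the spliceosome, which is built from small nuclear RNAs and their proteins. The Sm proteins, encoded by *Snrpb*, *Snrpd1* to *Snrpd3*, *Snrpe*, *Snrpf* and *Snrpg*, form a ring around the small nuclear RNA, while the SF3A and SF3B complexes help to recognise the branch site of the intron. SR proteins (Srsf genes) bind exons and mostly favour their inclusion. The hnRNPs coat new transcripts, often favour exon skipping, and several of them also act on mRNA export, stability and translation. MYC is known to raise the transcription of several of these genes, *Srsf1* and *Hnrnpa1* among them.

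Because both lines carry the MYC allele, the promoters were searched for the E-box CACGTG, the motif MYC binds best, which reads the same on both strands. In the RefSeq table for GRCm38.p6, 46 of the 52 members had promoters, each taken as 250 bases before to 50 after the transcription start. The genes without an entry were *Snrpb*, *Snrpd1*, *Sf3b4*, *Sf3b5*, *Hnrnpll* and *Hnrnpul2*. The motif was present in 7 of 63 member promoters (11.1%), which belong to 6 genes, against 10.4% of the 10487 promoters of genes tested in RPFs and 7.15% of all 32851 promoters. The share among the members was therefore close to that of other translated genes. In 4 of these genes a box lies upstream of the start, and the stretch around it is given here 5′ to 3′ on the strand of the gene, with the E-box in capitals. They are shown because *Hnrnpa3* is 1 of the genes that changed and the other 3 give the range of members that carry the same motif; for *Snrpa*, which has several boxes, the one nearest to its start is given.
Hnrnpa3 (chr2:75659229-75659258, plus strand): cggatagcacatCACGTGgtgactggcccc
Hnrnpd (chr5:99978953-99978982, minus strand): gcgctccggagcCACGTGaccgggacgcgc
Hnrnpf (chr6:117907713-117907742, plus strand): cgagcgggcgctCACGTGgcccgaggcgcc
Snrpa (chr7:27196286-27196315, minus strand): gctcttgaaggtCACGTGatactggcggaa
In RPFs the log2 fold changes of the 4 genes were -0.40, -0.37, -0.22 and -0.09, in this order. A match is only a description of the letters in these windows.

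The libraries were checked before the members were compared. The epithelial genes *Epcam*, *Cdh1*, *Krt8*, *Krt18* and *Krt19* reached at least 233 TPM (a level corrected for transcript length and depth) in every total RNA library. *Sftpc* and *Sftpb*, surfactant genes expressed in alveolar type 2 cells, were at 0 in all 8, and *Nkx2-1* did not exceed 0.12 TPM, although the tumours had been started by Cre under a surfactant protein promoter. The study's methods name surfactant protein C among the markers by which the identity of the cells was assessed. Of the 7 fibroblast markers, *Pdgfra* was highest at 1.07 to 3.03 TPM and the others were at or near 0; *Ptprc* and *Csf1r* stayed below 1 TPM, *Cd68* was at 32.5 to 219.9 TPM, *Cd3e* was at 0, and no endothelial marker exceeded 1.1 TPM. The targeted gene *Eif4a2* had 97.7, 122, 99.8 and 389 RPF CPM (counts scaled to the library size, with TMM factors) in KM_NTC replicates 1 to 4 and 51.0, 88.4, 74.8 and 346 in KM_4A2cr. It was lower in 4 of 4 pairs, and the log2 fold change (with its standard error, SE) was -0.49 (SE 0.15, adjusted p = 0.0941 by edgeR), or -0.60 without replicate 4. Whether the remaining counts come from edited mRNA was not tested.

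Replicate 4 stood apart in both lines, and most of the genes described here were lower in it. Relative to the mean of replicates 1 to 3, the RPF level of the members in replicate 4 had a median log2 difference of -0.63 in KM_NTC, with 44 of 50 below 0, and of -0.47 in KM_4A2cr, with 38 of 50 below 0. The medians over all genes were -0.04 and -0.09. Genes outside the members moved in replicate 4 too, such as *Eif4a2* at 1.87 in KM_NTC and 2.28 in KM_4A2cr. Other gene families were not ranked. Among the 4 symbol groups, Srsf genes were furthest down, with medians of -1.2 and -1.4, whereas the Snrp genes had medians of -0.13 and 0.08. *Srsf1* was at -2.90 and -3.28 on this scale, and *Hnrnpm*, which encodes an hnRNP that regulates alternative exons, at -2.14 and -2.59, so that the gap between replicate 4 and the rest exceeded the difference between the lines for both genes. The fits described here have the replicate as a term, and the counts of called members are also given without replicate 4.

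**Figure D1:**
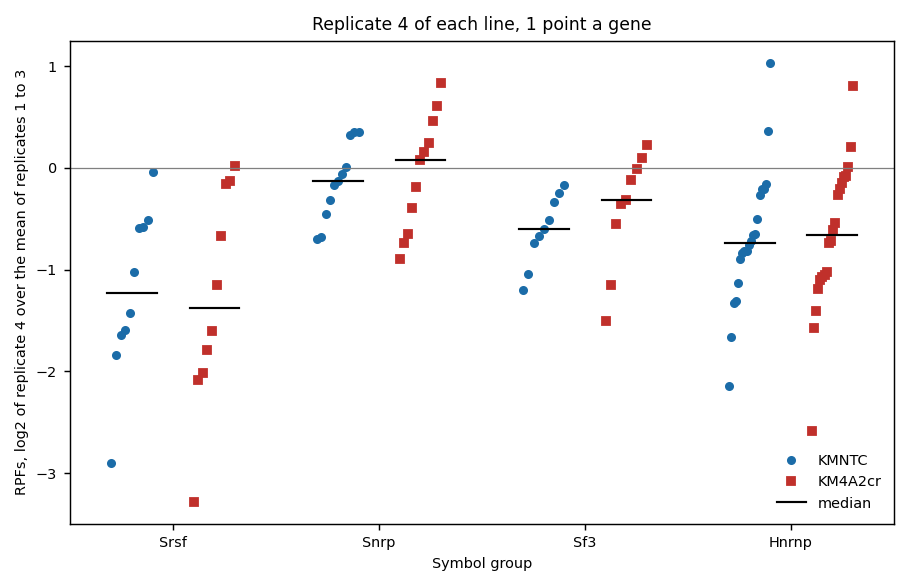
The y axis gives the log2 ratio of RPF CPM in replicate 4 to the mean of replicates 1 to 3, with 1 point per gene for the 50 members tested in RPFs, KM_NTC in circles and KM_4A2cr in squares, and the black bar is the median of each symbol group on the x axis. Srsf genes sit lowest in both lines, with *Srsf1* at -2.90 and -3.28, and Snrp genes lie on both sides of 0.

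Expression of the families spanned a wide range. By TPM, which may be compared between genes, *Snrpe*, an Sm ring protein, was highest at 952 ± 207 in KM_NTC and 825 ± 160 in KM_4A2cr (SD, n = 4). *Snrpg*, another Sm protein, followed with 476 ± 48.3 and 438 ± 47.1 TPM (SD, n = 4). *Hnrnpa2b1*, which encodes an abundant hnRNP that also marks transcripts for transport, had 438 ± 177 and 389 ± 192 TPM (SD, n = 4). These second and following places do not separate beyond their spread. *Srsf5* was the highest of the SR genes with 254 ± 84.4 and 262 ± 93.0 TPM (SD, n = 4), and *Sf3b6*, the subunit of SF3B that touches the branch point, was the highest of the Sf3 genes with 116 ± 21.9 and 103 ± 25.8. At the other end, *Snrpn*, the neuronal counterpart of *Snrpb*, had 1.89 ± 0.599 and 0.963 ± 0.350 TPM (SD, n = 4), and *Srsf12* was at or near 0 in all libraries. After the filter on low counts, 50 of the 52 members were tested in RPFs, all but *Snrpn* and *Srsf12*, and 51 in total RNA, all but *Srsf12*.

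In RPFs the families were slightly lower in KM_4A2cr than in KM_NTC cells, and few single members passed the test. *Srsf1*, *Snrpb* and *Hnrnpa3* fell and *Hnrnph3* rose past an adjusted p of 0.1, which is 4 of 50 members (8%), against 10.3% of the 10291 genes tested. The share called in either direction was thus no higher than in the background. By direction, 3 members (6%) fell, against 3.72% of all genes, and 1 member (2%) rose, against 6.6%. At an unadjusted p under 0.05 there were 8 members (16%), of which 7 were lower, against 23.4% of all genes. The members as a whole leaned downwards: 37 of 50 had a log2 fold change below 0 and 26% one above 0, against 48.9% of all genes, and the median was -0.15 against -0.01. Medians within the pairs of replicates 1 to 4 were -0.21, -0.16, -0.12 and -0.14, below the medians of all genes in each of the 4 pairs (-0.055, 0.016, 0.0010 and -0.018). In 4 of 4 pairs 19 members (38%) were lower, against 16% of all genes, and 4 members were higher, against 14.1%. Counted as a share of all RPF counts, the members together made up 1.12%, 1.26%, 0.848% and 0.506% in KM_NTC replicates 1 to 4. In KM_4A2cr they made up 0.823%, 1.00%, 0.725% and 0.475%, lower in every pair. These shares carry no TMM factors. With scaling by library size only, the typical tested gene was lower as well, with a median of -0.145 in RPFs against -0.29 for the members. The share alone therefore does not set the members apart from other genes.

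Without replicate 4, the test called 18 of 50 members in RPFs, of which 16 were lower and 2 higher, but it also called 33.4% of all genes. The 16 lower members are 32% of those tested, against 14.3% of all genes, and the 2 higher members compare with 19.1% of all genes. All 4 genes named above were among the 18. The 14 others were *Srsf2*, *Snrpa1*, *Snrpb2*, *Snrpd2*, *Snrpg*, *Sf3a1*, *Sf3a2*, *Sf3b1*, *Sf3b4*, *Hnrnpd*, *Hnrnpl*, *Hnrnpll* and *Hnrnpu*, which were lower, and *Hnrnpc*, which was higher; they were picked out after their values had been seen. Their log2 fold changes lay between -0.42 and 0.28, and the median of all 50 members remained -0.15. The counts thus depended on whether 1 pair of libraries was in the fit, while the median did not. Leaving out replicate 1, 2 or 3 instead left 1, 0 and 0 members past the threshold by edgeR (5, 4 and 4 at an unadjusted p under 0.05), and 232, 123 and 32 of all genes instead of 1062.

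**Figure D2:**
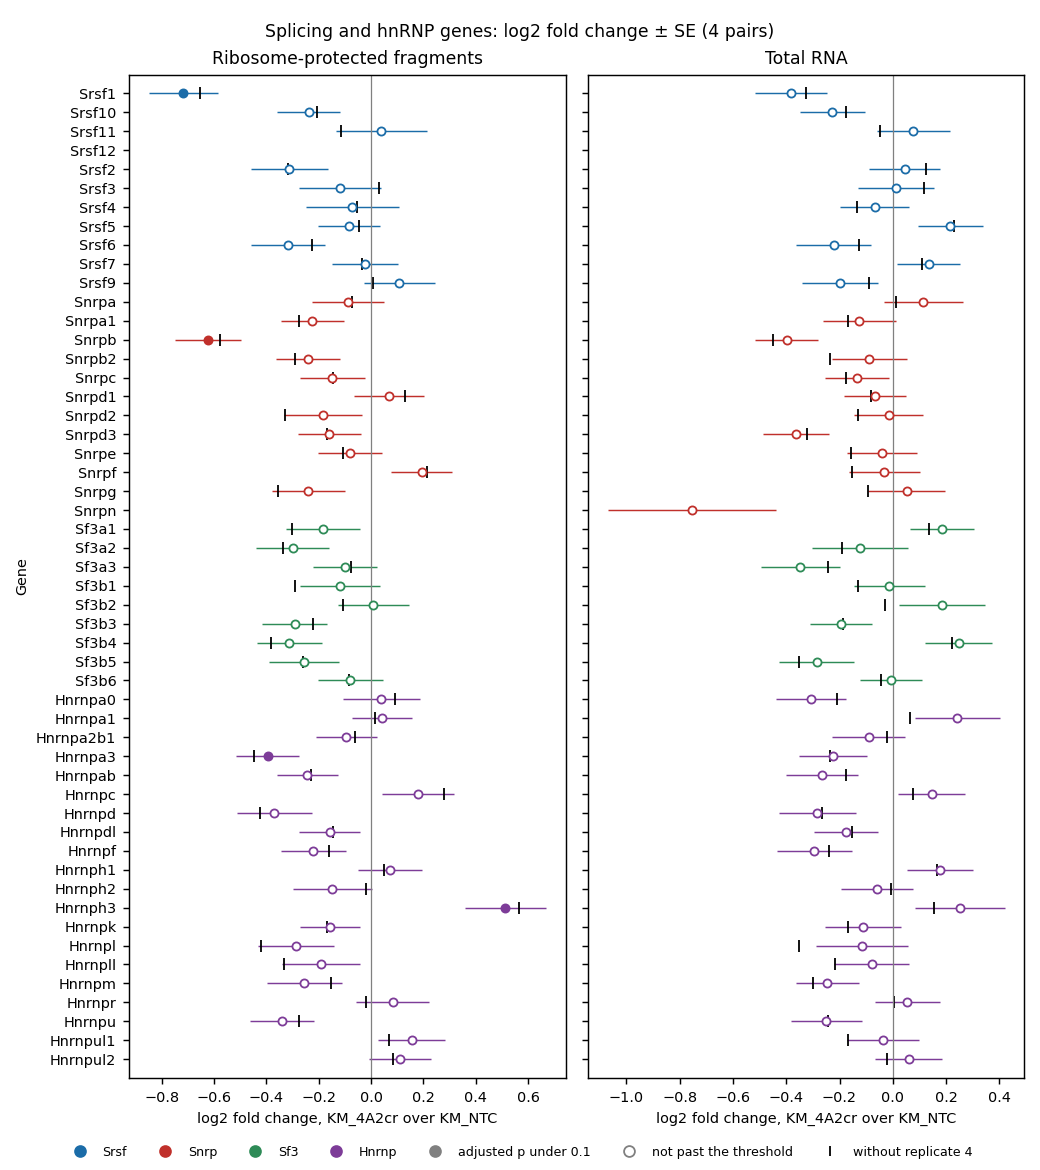
Each row is a gene, the x axis is the log2 fold change of KM_4A2cr over KM_NTC in RPFs (left) and total RNA (right), points with bars are the estimate ± its SE over 4 pairs, filled where the adjusted p is under 0.1, and black ticks are the estimate without replicate 4. Most points on the left lie below 0, and the 4 filled ones are *Srsf1*, *Snrpb*, *Hnrnpa3* and *Hnrnph3*; no point on the right is filled.

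Among the SR proteins, *Srsf1* showed the strongest fall. It encodes the founding member of the family, which acts in constitutive and alternative splicing and also moves to the cytoplasm. Its RPF level was 142, 145, 144 and 19.3 CPM in KM_NTC replicates 1 to 4 and 91.1, 86.6, 96.9 and 9.42 in KM_4A2cr. Replicate 4 was far below the others in both lines, and within replicates 1 to 3 the lines did not overlap. The log2 fold change was -0.72 (SE 0.13, 95% interval -1.01 to -0.42, adjusted p = 0.0208 by edgeR), a fall of 39.2%, and was -0.65 without replicate 4 (adjusted p = 0.000523 by edgeR). It was lower in 4 of 4 pairs. The call was lost without replicate 2 or replicate 3 (adjusted p = 0.182 and 0.194 by edgeR).

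The other 9 SR genes tested did not pass the threshold, and their log2 fold changes ran from -0.32 to 0.11. *Srsf6*, lower in 4 of 4 pairs, was at -0.32 (SE 0.14, adjusted p = 0.214 by edgeR), and at -0.22 without replicate 4 (adjusted p = 0.151 by edgeR). *Srsf2*, which recognises exonic enhancers, was at -0.31 (SE 0.15, adjusted p = 0.237 by edgeR). *Srsf9* had the highest value, 0.11 (SE 0.13, 95% interval -0.20 to 0.41). The median of the 10 tested Srsf genes was -0.10.

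In the Snrp group, *Snrpb* fell. It encodes the SmB proteins of the ring. RPF levels were 234, 194, 210 and 131 CPM in KM_NTC and 159, 144, 125 and 76.7 in KM_4A2cr replicates 1 to 4. Each KM_4A2cr library was below its partner, and only KM_NTC replicate 4 lay within the range of the KM_4A2cr libraries. The log2 fold change was -0.62 (SE 0.13, 95% interval -0.91 to -0.34, adjusted p = 0.0285 by edgeR), or 35.1% less, and -0.58 without replicate 4 (adjusted p = 0.00152 by edgeR). Without replicate 1, 2 or 3 the adjusted p was 0.116, 0.175 and 0.259. *Snrpb* and *Snrpn* encode near-identical proteins, so fragments of shared stretches may be assigned to either gene. As assigned, *Snrpn* had 14 RPF counts over the 4 KM_NTC libraries and *Snrpb* 6682. How shared fragments were divided is not visible in these counts and was not tested.

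The other Sm genes of the ring did not pass the threshold. *Snrpf* was the highest of the group, with 92.1, 101, 126 and 133 CPM in KM_NTC and 112, 113, 144 and 145 in KM_4A2cr, and was higher in 4 of 4 pairs with a log2 fold change of 0.19 (SE 0.12, adjusted p = 0.356 by edgeR). *Snrpe* was at -0.08 (SE 0.12, 95% interval -0.36 to 0.19) and *Snrpd3* at -0.16 (SE 0.12, 95% interval -0.43 to 0.11). *Snrpd1* was at 0.07 (SE 0.13), *Snrpd2* at -0.18 (SE 0.15) and *Snrpg* at -0.24 (SE 0.14). Without replicate 4, *Snrpd2* (-0.33, adjusted p = 0.0311 by edgeR) and *Snrpg* (-0.36, adjusted p = 0.0227 by edgeR) were called. No difference between these genes and *Snrpb* was tested. The 11 Snrp genes tested in RPFs had a median of -0.16, with 9 below 0.

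All 9 subunits of SF3A and SF3B were tested in RPFs and none passed the threshold. Their values were close together, from -0.31 for *Sf3b4* to 0.01 for *Sf3b2*, and 8 of 9 were below 0 with a median of -0.18. *Sf3b4*, a subunit that anchors the complex upstream of the branch site, was lower in 4 of 4 pairs (SE 0.13, adjusted p = 0.177 by edgeR), and at -0.38 without replicate 4 (adjusted p = 0.0195 by edgeR). *Sf3b1*, the largest scaffold of the complex and a frequent target of mutation in blood cancers, was at -0.12 (SE 0.15, 95% interval -0.47 to 0.23), and at -0.29 without replicate 4 (adjusted p = 0.0404 by edgeR). *Sf3b2*, with 176, 240, 170 and 164 CPM in KM_NTC and 152, 222, 169 and 212 in KM_4A2cr, changed its sign with the setting and was -0.11 without replicate 4.

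The 20 hnRNP genes held 1 called fall and 1 called rise. *Hnrnpa3*, a relative of hnRNP A1 that binds RNA and telomeric repeats, had 678, 877, 593 and 423 RPF CPM in KM_NTC and 496, 606, 463 and 359 in KM_4A2cr replicates 1 to 4. It was lower in each pair although the groups overlapped. The log2 fold change was -0.40 (SE 0.12, 95% interval -0.67 to -0.12, adjusted p = 0.0958 by edgeR), and -0.45 without replicate 4 (adjusted p = 0.00614 by edgeR). Without replicate 1, 2 or 3 the adjusted p was 0.254, 0.473 and 0.379. Genes of the hnRNP A group resemble each other and have many copies in the genome, so part of their fragments may be exchanged.

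*Hnrnph3*, a small hnRNP of the H and F group, was scarce, with 392 RPF counts over the KM_NTC libraries and 462 over the KM_4A2cr libraries. Its levels were 6.16, 14.9, 10.00 and 21.2 CPM in KM_NTC and 7.97, 19.8, 18.8 and 27.2 in KM_4A2cr. The groups overlapped, with a rise in each of the 4 pairs. The log2 fold change was 0.51 (SE 0.15, 95% interval 0.16 to 0.86, adjusted p = 0.0941 by edgeR), a rise of 42.7%, and 0.56 without replicate 4 (adjusted p = 0.0254 by edgeR). DESeq2 did not call it (adjusted p = 0.168), nor did edgeR without replicate 1, 2 or 3 (adjusted p = 0.200, 0.342 and 0.356). Total RNA of *Hnrnph3* was at 0.25 (SE 0.17, adjusted p = 0.473 by edgeR). For the isoform on which its RPFs were counted, total RNA was at 0.49 (SE 0.19, adjusted p = 0.223 by edgeR).

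The remaining 18 hnRNP genes did not pass the threshold. *Hnrnpd*, whose product (AUF1) binds AU-rich mRNA and promotes decay, was at -0.37 (SE 0.14, adjusted p = 0.160 by edgeR), and *Hnrnpu*, a scaffold protein of chromatin, was at -0.34 (SE 0.12, adjusted p = 0.141 by edgeR). The abundant *Hnrnpa2b1* was at -0.09 (SE 0.12, 95% interval -0.36 to 0.17) and *Hnrnpa1* at 0.04 (SE 0.12, 95% interval -0.22 to 0.30). Of the 20 genes 12 were below 0, and the median was -0.15.

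**Figure D3:**
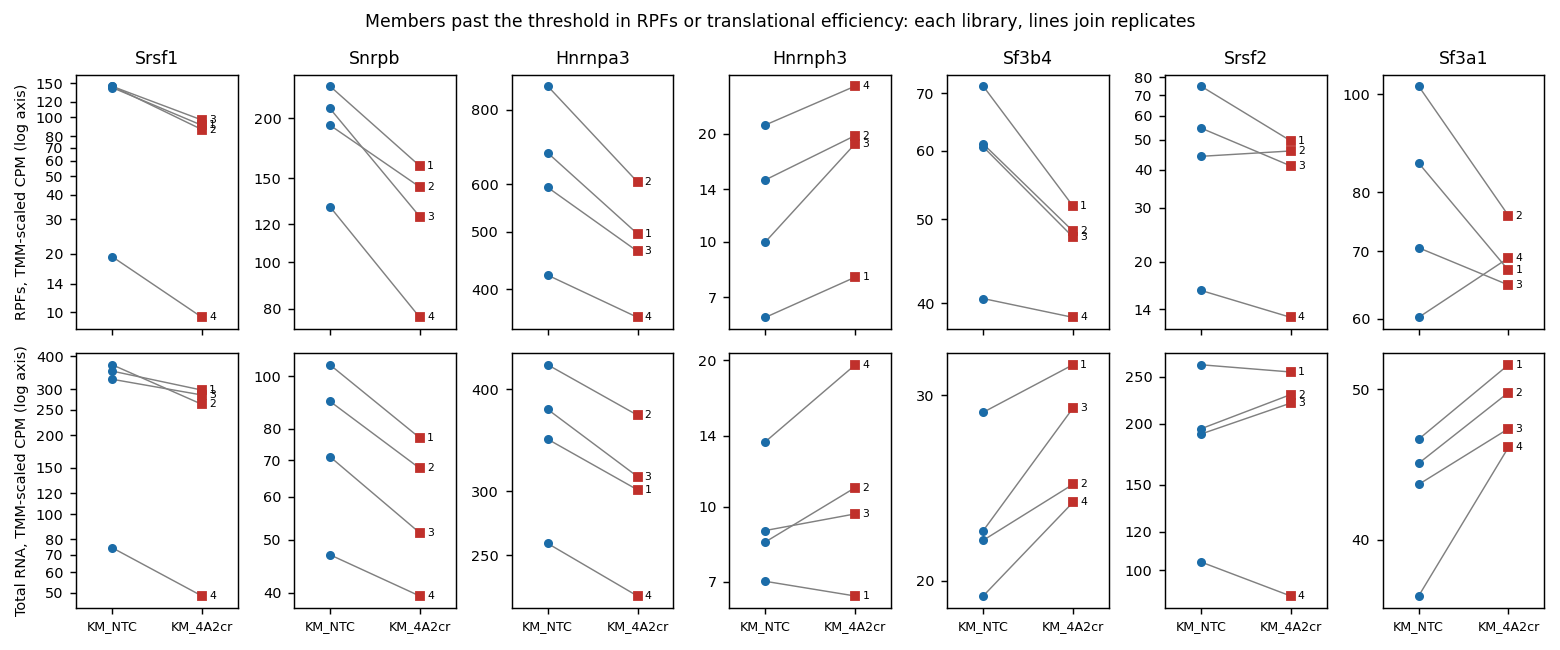
Each panel shows 1 gene in RPFs (top) or total RNA (bottom) as TMM-scaled CPM on a log axis whose range differs between panels, with circles for KM_NTC, squares for KM_4A2cr, and a line and number for each replicate. The lines of *Srsf1*, *Snrpb* and *Hnrnpa3* fall in all 4 pairs of RPFs and of total RNA, those of *Hnrnph3* rise in RPFs, and those of *Sf3b4* and *Sf3a1* rise in total RNA.

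In total RNA the same genes differed less, and 0 of 51 members passed the adjusted p of 0.1 by edgeR, against 6.13% of 10880 genes, of which 4.35% were higher and 1.78% lower. DESeq2 also called 0. At an unadjusted p under 0.05 there were 6 members, all lower in KM_4A2cr (11.8%, against 18.3% of all genes), namely *Snrpn*, *Snrpb*, *Srsf1*, *Snrpd3*, *Sf3a3* and *Hnrnpa0*. The median log2 fold change of members was -0.08 against 0.01 over all genes, and 35 of 51 were below 0. Pair medians were -0.14, -0.14, -0.09 and 0.03, so replicate 4 did not share the direction. In 15 members (29.4%) total RNA was lower in 4 of 4 pairs, against 13% of all genes.

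*Snrpb* came nearest to the threshold, with 105, 89.9, 71.1 and 46.9 CPM of total RNA in KM_NTC and 77.0, 67.7, 51.5 and 39.4 in KM_4A2cr. It was lower in 4 of 4 pairs, with a log2 fold change of -0.40 (SE 0.12, adjusted p = 0.106 by edgeR). *Srsf1* had 352, 372, 327 and 74.3 CPM in KM_NTC and 297, 262, 285 and 48.6 in KM_4A2cr, with a log2 fold change of -0.38 (SE 0.14, adjusted p = 0.165 by edgeR). In both genes replicate 4 was lowest in either line. *Snrpn* had the lowest value of all members, -0.75 (SE 0.32, adjusted p = 0.233 by edgeR), from 57 counts over the KM_NTC and 26 over the KM_4A2cr libraries.

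Without replicate 4, 10 of 50 members passed in total RNA (20%), against 29.8% of all genes. Of these, 9 were lower (18%, against 12% of all genes) and *Srsf5* was higher, by 0.23 (17.8% of all genes were higher). The lower genes were *Srsf1*, *Snrpb*, *Snrpd3*, *Sf3b5*, *Hnrnpa3*, *Hnrnpf*, *Hnrnpl*, *Hnrnpm* and *Hnrnpu*, named after their values had been seen. *Snrpb* was then at -0.45 (adjusted p = 0.0021 by edgeR) and *Srsf1* at -0.32 (adjusted p = 0.0156 by edgeR). Leaving out any of the other replicates called 0 members.

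Translational efficiency is the change in RPFs relative to that in total RNA, here on the log2 scale and tested over all 16 libraries as the term by which the line difference varies with the kind of library. It was lower in KM_4A2cr for 4 of 50 members (8%), against 2.91% of 9989 genes, or 1.04% in the lower direction, and 0 members were called higher (1.87% of all genes were). These were *Sf3b4*, *Srsf2*, *Sf3a1* and *Srsf1*. The median of the members was -0.09 against -0.02 over all genes, and 34% were above 0 against 47.1%. The medians were -0.11 for the Srsf, -0.10 for the Snrp, -0.11 for the Sf3 and 0.0023 for the Hnrnp genes, and no Snrp or Hnrnp gene was called.

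*Sf3b4* had the largest change in efficiency. Its RPFs were 71.3, 61.2, 60.7 and 40.5 CPM in KM_NTC and 51.8, 48.5, 47.7 and 38.5 in KM_4A2cr, whereas its total RNA was 28.9, 21.9, 22.3 and 19.3 CPM in KM_NTC and 32.1, 24.7, 29.2 and 23.7 in KM_4A2cr. Footprints were lower and mRNA was higher in each of the 4 pairs. Neither passed its own test, with log2 fold changes of -0.31 and 0.25, but efficiency fell by 0.57 (SE 0.12, adjusted p = 0.0275 by edgeR). Without replicate 4 it fell by 0.60 (adjusted p = 0.0057 by edgeR), and DESeq2 called it too.

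*Srsf2* had 74.9, 44.2, 54.6 and 16.2 RPF CPM in KM_NTC and 49.6, 46.0, 41.1 and 13.2 in KM_4A2cr. Its total RNA was 264, 195, 190 and 104 CPM in KM_NTC and 256, 230, 221 and 88.5 in KM_4A2cr. The RPF decrease relative to mRNA was seen in each pair, and efficiency was at -0.40 (SE 0.11, adjusted p = 0.0877 by edgeR). *Sf3a1*, a U2-associated subunit that contacts the small nuclear RNA, was at -0.39 (SE 0.11, adjusted p = 0.0893 by edgeR), with an RPF change of -0.18 and a total RNA change of 0.18. *Srsf1* was at -0.35 (SE 0.10, adjusted p = 0.0893 by edgeR), so both its mRNA and the footprints per mRNA were lower, although the mRNA fall missed the threshold. DESeq2 gave adjusted p-values of 0.166, 0.200 and 0.111 for *Srsf2*, *Sf3a1* and *Srsf1*. Without replicate 1, 2 or 3 no member was called, and without replicate 4 there were 7 of 50 (14%, against 6.68% of all genes). The 4 named genes and *Srsf5* were lower (2.58% of all genes were) and *Hnrnpa0* and *Snrpf* higher (4.1% of all genes), the last 3 named after their values had been seen.

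**Figure D4:**
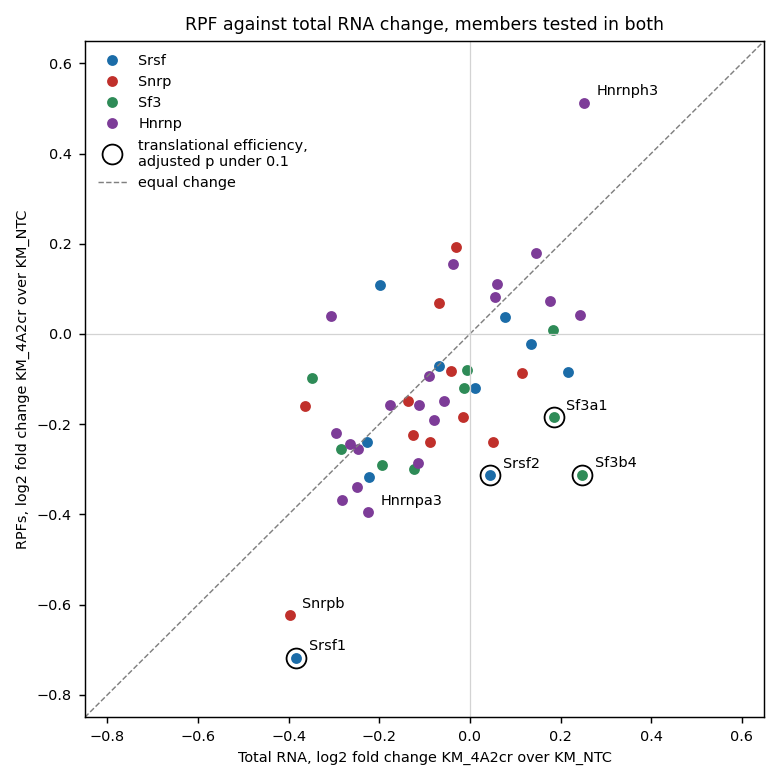
Each point is 1 of the 50 members tested in both kinds of library, with the log2 fold change in total RNA on the x axis and in RPFs on the y axis, coloured by symbol group; the dashed line marks equal change, and rings mark an adjusted p under 0.1 for translational efficiency. The ringed genes *Sf3b4*, *Sf3a1*, *Srsf2* and *Srsf1* lie below the line, and *Snrpb* and *Srsf1* lie lowest on both axes.

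Over the 50 members, RPFs and total RNA were both lower in 29 and both higher in 8, while 8 had lower RPFs with higher total RNA and 5 the reverse. Across these genes, which share libraries and are not independent replicates, the log2 fold changes correlated with Pearson's r = 0.57 and Spearman's rho = 0.55, against an r of 0.77 over 9989 genes. The 2 kinds of library came from the same lysates and were scaled separately, so a change shared by all mRNA or all footprints of a cell is not visible. Fewer cells with a transcript and less RNA per cell cannot be told apart in these bulk libraries.

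Isoforms were examined in total RNA, since RPFs were counted on 1 transcript per gene. The members had 118 isoforms, and 27 of the genes had more than 1. Of 116 isoforms tested, 0 passed an adjusted p of 0.1 by edgeR, against 4.64% of all isoforms, and 15 had an unadjusted p under 0.05, of which 14 were lower, against 16.2% of all isoforms. Without replicate 4, 17 of 115 passed, against 26.1% of all isoforms. Isoform usage, the share of a gene's counts on each isoform, was called for 0 of 27 members and at 0% of 5088 genes, and 0 members had an unadjusted p under 0.05, against 0.904% of genes. The largest shift in share was 9.24 percentage points in *Hnrnph3*, whose isoform counted in the RPFs made up 43.5% ± 8.35 in KM_NTC and 52.7% ± 8.53 in KM_4A2cr (SD, n = 4, unadjusted p = 0.184 for usage by edgeR). These shares need care. Of the 93 isoforms of the 27 genes, 68 held a share within 25% of an even split of their gene, and in 14 genes all isoforms did. The 4 isoforms of *Srsf5*, for example, held 26.1%, 25.9%, 23.1% and 25.0% of its counts over all libraries. In each library 27 to 58 expected counts were not whole, so how reads that match several isoforms were divided is not visible in the values, and the absence of a call does not show that splicing of these genes was alike.

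Position in the genome moved with part of the result. *Snrpb*, *Snrpb2*, *Srsf6* and *Hnrnpa3* lie on chromosome 2, and all 4 were below 0 in RPFs in every pair, with a median of -0.36. The 833 chromosome 2 genes tested had a median log2 fold change of -0.21 in RPFs, against 0.01 for the 9252 genes on other chromosomes, and -0.17 against 0.02 in total RNA. The 46 members elsewhere had a median of -0.13, and 2 of them (4.35%), *Srsf1* and *Hnrnph3*, were called, against 9.88% of all genes elsewhere. On chromosome 2 the 2 calls among 4 members compare with 12.85% of all genes there. The part of the chromosome in the result was not tested.

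Splicing genes outside the 4 symbol groups gave the context. Of 153 genes in 6 lists, 151 were tested in RPFs, 7 were lower (4.64%, against 3.72% of all genes) and 0 higher (against 6.6%), with a median of -0.14 and 44 above 0. In total RNA the median was -0.05 with 2 lower and 0 higher of 151, against 1.78% and 4.35% of all genes. In translational efficiency it was -0.04 with 1 lower and 2 higher of 150, against 1.04% and 1.87%. Of the 7, the 3 that fell furthest belong to the list for Sm ring assembly and exon junctions. In this list 3 of 17 fell (17.65%, against 3.72% of all genes) and 4 were above 0. The 3 were *Wdr77*, a subunit of the complex that methylates Sm proteins, *Gemin5*, which selects small nuclear RNAs for the SMN complex, and *Gemin4*, another subunit of it. *Wdr77* had 93.4, 60.5, 81.8 and 25.8 RPF CPM in KM_NTC and 60.5, 49.7, 47.1 and 15.1 in KM_4A2cr, a log2 fold change of -0.61 (SE 0.14, adjusted p = 0.0428 by edgeR). *Gemin5* had 78.5, 72.8, 60.8 and 36.9 CPM in KM_NTC and 52.0, 52.0, 39.1 and 24.2 in KM_4A2cr, a log2 fold change of -0.58 (SE 0.12, adjusted p = 0.0316 by edgeR). *Gemin4* was at -0.47 (SE 0.13, adjusted p = 0.0804 by edgeR). Each of the 3 was lower in 4 of 4 pairs, although the groups overlapped. Without replicate 4 their log2 fold changes were -0.57, -0.57 and -0.42, in this order, and without replicate 1, 2 or 3 none of the 3 was called.

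In the next 3 lists the share of lower genes was near the 3.72% of all genes. The list of further small nuclear ribonucleoproteins had 1 lower gene of 27 (3.70%), *Snrnp200*, the helicase that unwinds U4 from U6, at -0.42 (SE 0.13, adjusted p = 0.0958 by edgeR). Of the 27 factors of the catalytic steps, *Aqr*, an intron-binding helicase, was the 1 lower gene (3.70%) at -0.43 (SE 0.12, adjusted p = 0.0830 by edgeR). Both lie on chromosome 2. In the list of other hnRNP-like proteins and regulators 2 of 43 (4.65%) were lower, among them *Fubp1*, which binds single-stranded DNA near *Myc*, at -0.43 (SE 0.13, adjusted p = 0.0879 by edgeR). None of 13 branch site factors and none of 24 SR-related proteins and kinases was called in RPFs by edgeR, with 0 and 2 at an unadjusted p under 0.05 and medians of -0.08 and -0.14. Of the calls outside RPFs, *Prpf31* (-0.48) and *Rbm17* (-0.41) were lower in total RNA, and *Qk* (0.45) and *Strap* (0.32) were higher in translational efficiency; these 4 were named after their values had been seen.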

How the data were processed

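Per the labels and the study's methods, RPF reads were trimmed with Cutadapt 1.18, aligned with BBmap to 1 protein-coding transcript per gene, the most abundant (mouse GENCODE, release 27), and deduplicated with UMI-tools 1.0.1. The authors deposited whole-number RPF counts per transcript, from fragments of 28 to 33 nucleotides, in the coding region after leaving out 20 codons at its start and 10 at its end. Bowtie2 2.3.5.1 and RSEM 1.3.3 gave the expected counts and TPM per isoform that the authors deposited for total RNA. Strandedness of the counting is not given in the sources used here.

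Here RPF counts were joined to genes, transcripts missing from a library were set to 0, and expected counts were summed per gene and rounded to whole numbers. Symbols were matched for 20586 of 20622 genes. Chromosomes came from RefSeq for GRCm38.p6. Genes were filtered with filterByExpr, scaled by TMM and tested with the quasi-likelihood test of edgeR 4.0.16 in R 4.3.3, in a model of replicate and cell line. P-values were adjusted over all tested features by the Benjamini-Hochberg method, with a threshold of 0.1. Printed intervals are 95% intervals of the fit. Translational efficiency was an interaction over 16 libraries scaled within each kind, and isoform usage was tested with diffSpliceDGE. Replicate numbers were taken as the pairs of lysates. At the same number, deviations of both lines from their means correlated over genes. For replicates 1 to 4 the values were 0.763, 0.782, 0.575 and 0.687 in RPFs. In total RNA they were 0.756, 0.736, 0.611 and 0.708. Different numbers were not set against each other, and replicate 4 shifts the mean of each line. These values therefore cannot show that the numbers pair the lysates. The tests were tried first on simulated counts. Alternatives were no replicate term, DESeq2 1.42.0, 3 other scalings, 2 other filters, a threshold of 0.05, each replicate left out, and counts of the RPF transcript only.

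Named members are those past the threshold and, in each symbol group, the highest and lowest in RPFs and the highest in TPM. From each list outside the rule up to 3 called genes per direction were named. Further members and marker genes are named as context. Some items, 1 further allele of the mouse among them, are not reported here. The members and lists were chosen with earlier results of these data known. At these depths intervals cover counting error and the spread between 4 experiments on 1 pair of lines, and a difference between guides cannot be told apart from one between the pooled clones and the control line.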

Additional observations from a re-analysis of the deposited data

Results flagged for a closer look

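Within each line and kind of library, 60 groups of 4 libraries were checked for a library far from the other 3, and 11 were found. Chance meets this rule in about 1 group in 20. Groups of the same gene share lysates or replicate numbers and are not independent, so this rate cannot be set against 11 of 60. Of the 11, 8 were in replicate 4. *Srsf1* was low in replicate 4 in all 4 groups, with 19.3 CPM in KM_NTC and 9.42 CPM in KM_4A2cr RPFs and with 74.3 and 48.6 CPM in total RNA. *Srsf9* total RNA was low in KM_4A2cr replicate 4, at 18.4 CPM. *Eif4a2* was high in replicate 4, at 389.0 CPM in KM_NTC and 346.0 CPM in KM_4A2cr RPFs and at 524.0 CPM in KM_NTC total RNA. The other 3 were *Sf3b2* RPFs in KM_NTC replicate 2, high at 240.0 CPM, *Snrpf* total RNA in KM_NTC replicate 2, low at 52.2 CPM, and *Srsf5* total RNA in KM_4A2cr replicate 1, low at 132.0 CPM.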

How the results depend on the processing

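Counts of called members depended on the processing more than their medians did. Without the replicate block, 0 members were called in RPFs and 0 in translational efficiency, as were 0 of all genes; 0 were called in total RNA either way. By the same edgeR test without the block, 0 members had an unadjusted p under 0.05 in any of the 3. With a threshold of 0.05 the counts were 2 in RPFs and 1 in efficiency, and 438 of all genes were called in RPFs, against 1062 in the main fit. With scaling by library size only the counts of members were 9 in RPFs, 8 in total RNA and 1 in efficiency. The calls among all genes rose as well, to 1619 in RPFs. Medians of the members were then -0.29 in RPFs and -0.23 in total RNA, and the medians of all genes were -0.14 and -0.15. Upper-quartile factors gave 1 in total RNA and a median of -0.19 in RPFs, and keeping low counts gave 1 in total RNA. DESeq2 gave 1 in efficiency. RLE size factors and keeping low counts each gave 5 in efficiency, the 4 of the main fit and *Hnrnpa0*. In the main fit *Hnrnpa0* was at 0.33 in efficiency (adjusted p = 0.116 by edgeR). Leaving out each replicate in turn gave 0 to 18 in RPFs, 0 to 10 in total RNA, 0 to 7 in efficiency, 0 to 17 isoforms and 0 for isoform usage, with the highest numbers without replicate 4; the RPF median then stayed between -0.16 and -0.12, and that of total RNA between -0.14 and -0.03. The cause was not tested. Among the values of single named genes under an alternative, 389 kept direction and side of the threshold, 84 lost and 12 gained the threshold, and 13 changed sign. *Sf3b2* RPFs were at -0.032 with upper-quartile factors, -0.12 with library size only and -0.00062 with low counts kept, and ran from -0.11 (without replicate 4) to 0.080 when replicates were left out. *Srsf9* RPFs were at -0.023 and *Srsf2* total RNA at -0.11 with library size only. The other changes of sign came in total RNA when replicates were left out, with ranges of -0.021 to 0.12 for *Srsf2*, -0.15 to 0.033 for *Snrpf*, -0.046 to 0.022 for *Sf3b6*, -0.16 to 0.0017 for *Snrpe* and -0.028 to 0.31 for *Sf3b2*. Genes near the filter, such as *Snrpn*, have too few counts for a firm fold.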
